A study of Mus musculus with 18 samples.

Results

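The data described here are the levels of 9 interferon-stimulated genes, Ifit1, Ifit2, Ifit3, Isg15, Irf7, Oasl2, Rsad2, Usp18 and Bst2, in mouse whisker pad after transection of the facial nerve. The genes were taken by name, with earlier results of these data known. For each one the normalized TPM (transcript abundance corrected for transcript length and library size) of its annotated transcripts were added up. All 9 were found among the 35150 genes of the table, and all 9 passed the filter on low values in every comparison (1 TPM or more, reached by 47% or more of the samples compared).

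In each of 9 adult mice the facial nerve was cut on the right side, at its buccal and superior marginal branches. The left pad had a sham operation, in which the skin was opened and closed again with the nerve left whole. Both pads were sampled from 3 mice at day 1, 3 other mice at day 3 and 3 others at day 7, which gives 6 groups of 3 libraries, namely sham and denervated at each day. Each sample was a biopsy punch that held skin as well as muscle, and every pad, sham included, had a skin wound. No unoperated pad was in the series. Strain and genotype are not given in the sources used here for these mice, and the study used both sexes.

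Interferons are secreted proteins that warn cells of infection or tissue damage. Type I interferons bind the receptor Ifnar1/Ifnar2, which signals to the nucleus through the kinases Jak1 and Tyk2. A complex that holds the factor Irf9 then binds a short DNA element, the interferon-stimulated response element, and switches on a wide set of genes. The 9 genes here are well-known members of that set. Ifit1, Ifit2 and Ifit3 bind foreign RNA or the complexes formed on it, Isg15 is a ubiquitin-like protein that is attached to other proteins, and Usp18 removes it and also damps the receptor. Irf7 is a transcription factor that raises interferon transcription, Oasl2 belongs to the oligoadenylate synthetase family, Rsad2 encodes the enzyme viperin, and Bst2 encodes tetherin, a membrane protein that holds budding virus at the cell surface.

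Letters like those of the interferon-stimulated response element can be read in several of the promoters. RefSeq promoter windows on GRCm38.p6, from 250 bases before to 50 bases after the start of transcription, were found for 8 of the 9 genes (Usp18 has none), and Ifit2 has a pair of them. The letters searched were GAAANNGAAA, or TTTCNNTTTC for the other strand. They were found in the windows of 5 genes, Isg15, Bst2, Rsad2, Ifit1 and Ifit3, and not in those of Ifit2, Irf7 and Oasl2. Of all 32851 windows in the table, 3.44% held a match and 0.225% held 2 or more, as did 4 of the 8 genes with a window. Of 25 other listed interferon-stimulated genes with a window, 12 held a match. A match is a run of letters and was not measured as a binding site. The stretch from position -170 to -51, counted from the start, is shown for the 5 genes, on the strand of the gene, with the matches in capitals.
Isg15, chr4:156200869-156200988, minus strand: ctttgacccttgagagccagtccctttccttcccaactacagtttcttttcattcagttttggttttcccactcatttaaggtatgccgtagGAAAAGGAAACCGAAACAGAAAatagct
Bst2, chr8:71537523-71537642, minus strand: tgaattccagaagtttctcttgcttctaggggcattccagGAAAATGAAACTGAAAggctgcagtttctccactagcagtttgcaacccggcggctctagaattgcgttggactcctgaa
Rsad2, chr12:26456503-26456622, minus strand: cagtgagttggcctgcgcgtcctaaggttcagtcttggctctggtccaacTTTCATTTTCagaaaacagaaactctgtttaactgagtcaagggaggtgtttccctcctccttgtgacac
Ifit1, chr19:34640719-34640838, plus strand: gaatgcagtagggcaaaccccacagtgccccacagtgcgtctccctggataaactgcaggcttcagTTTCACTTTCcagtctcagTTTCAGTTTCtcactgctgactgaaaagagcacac
Ifit3, chr19:34583359-34583478, plus strand: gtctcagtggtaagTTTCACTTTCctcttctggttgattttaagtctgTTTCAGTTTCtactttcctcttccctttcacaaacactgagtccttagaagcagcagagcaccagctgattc
The 3 matches of Isg15 overlap one another and begin at positions -78, -72 and -66. Those of Bst2 also overlap, at -130 and -124, while those of Ifit1 (-104 and -85) and Ifit3 (-156 and -122) stand apart and Rsad2 has 1, at -120.

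In the normalized TPM, which is a value per transcript length and can be set side by side between genes, the 9 genes were low to moderate. Bst2 was highest, with a mean of 19.1 TPM ± 5.89 (SD over all 18 libraries), followed by Isg15 (15.1 ± 8.68) and Irf7 (10.9 ± 3.49). The middle of the order was Rsad2 (8.16 ± 10.7), Oasl2 (7.27 ± 3.15), Ifit3 (6.57 ± 3.00) and Ifit1 (5.82 ± 2.73). Usp18 (3.32 ± 1.21) and Ifit2 (2.41 ± 0.883) were lowest. No neighbours in this order differed by more than the larger of their SDs. Bst2 was above Isg15 in 13 of 18 libraries and Irf7 above Rsad2 in 15, but Rsad2 was above Oasl2 in only 7 and Oasl2 above Ifit3 in 10.

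The genes differed in how much they varied. Rsad2 ran from 0.749 to 48.2 TPM, and was below 1 TPM in 2 libraries, while Bst2 ran only from 9.48 to 28.2 TPM. The highest value of Ifit2, Isg15, Irf7, Rsad2 and Usp18 was in the same library, the denervated pad of day 7 mouse 1. Mice of day 7 are numbered here in the order of the samples. The table numbers them differently, and its columns were matched by side and sequencing index, with the day, the side and the pairing of pads the same under both numberings. The pad with these highest values also held the most haemoglobin RNA of all 18, as described beside the results below.

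Not all the summed TPM came from coding transcripts. Ifit1, Ifit3 and Isg15 have 1 annotated transcript each in the table, and single coding transcripts carried 98.7% of Bst2, 99.6% of Ifit2 and 80.0% of Usp18. For Oasl2, 76.8% of the mean was assigned to Oasl2-205, annotated as subject to nonsense-mediated decay, and 6.49% to the coding Oasl2-201. For Irf7, 33.2% was assigned to the coding Irf7-201 and 30.6% to Irf7-210, which retains an intron. The sums of these genes are therefore levels of the locus and not of the coding message.

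Some members cannot be separated fully from near copies. Of the 31-base words of Ifit3-201, 61.8% also occur in transcripts of its neighbour Ifit3b, so the level of Ifit3 rests on how the counting tool split those reads. Ifit3b itself averaged 1.87 TPM. For Isg15 the share found in other genes was 13.1% and for Usp18 5.51%, for Ifit1 it was 288 of 2626 words, and for Ifit2, Irf7 and Bst2 no word was shared.

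**Figure D1:**
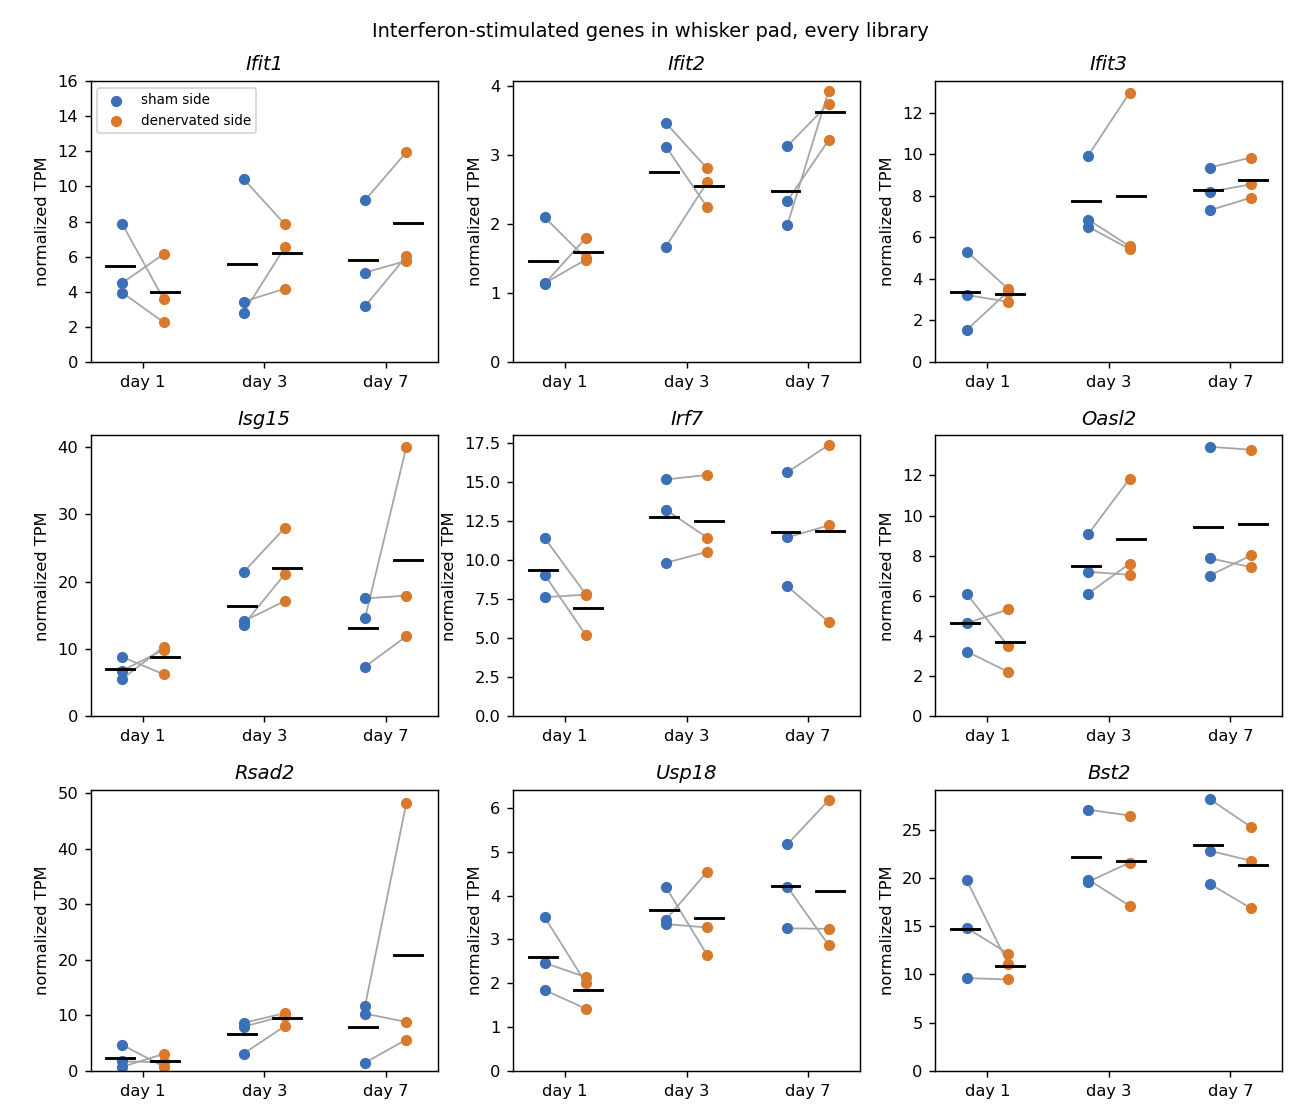
Normalized TPM of each of the 9 genes (vertical axis, from 0) in every library by day, with sham pads in blue, denervated pads in orange, grey lines joining the pads of 1 mouse and black bars marking group means of 3. Most genes sit lower at day 1 than later on both sides, and the denervated pad of day 7 mouse 1 stands far above the rest for Rsad2 (48.2 TPM) and Isg15 (40.0 TPM).

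The main question of the design was how denervated and sham pads differ. None of the 9 genes passed the test (limma on log2(TPM + 0.5), Benjamini-Hochberg adjusted p under 0.05 over all genes tested) over all days or at any single day. Over all days 457 of 14757 genes passed, which is 3.10%. At day 1 the count was 0 of 14776 (0%, with 634 at an unadjusted p under 0.05), at day 3 it was 217 of 14943 (1.45%) and at day 7 it was 230 of 15081 (1.53%). When the mouse was added to the fit as a block, no member passed either, beside 3.50% of all genes over all days. The single days had 0%, 1.45% and 2.17% of genes called in that fit. The median log2 difference of the 9 genes, denervated minus sham, was 0.04 over all days, -0.33 at day 1, -0.03 at day 3 and 0.08 at day 7, beside 0.01, 0.01, -0.01 and 0.04 over all genes. Scaling the libraries to their muscle markers moved the medians of all genes to 0.20, 0.14, 0.26 and 0.20, and 8, 4, 9 and 9 of the 9 genes were then above 0, none of them past the test.

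Isg15 had the most even excess on the denervated side. At day 1 its sham pads read 5.58, 6.81 and 8.82 TPM and its denervated pads 10.3, 9.86 and 6.27. At day 3 the sham values were 13.6, 21.4 and 14.1 TPM and the denervated ones 21.1, 28.0 and 17.1. At day 7 they were 14.6, 7.39 and 17.5 TPM against 40.0, 11.9 and 17.9. The denervated pad was the higher one in 8 of 9 mice, the exception being day 1 mouse 3, but the groups overlapped at every day. Across all genes, 7.39% were higher on the denervated side in at least 8 of 9 mice. The log2 difference over all days was 0.47 (SE 0.22, 95% interval 0.02 to 0.93, adjusted p = 0.32). An exact sign-flip permutation test on the 9 within-mouse differences gave p = 0.0273 and, adjusted over all genes, 0.222. No gene of the 14757 passed this test after adjustment (0%), although 2398 had an unadjusted p under 0.05. The smallest p that 9 mice allow in it is 0.00391 before adjustment, so the absence of calls says little.

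Bst2 went the other way by a small margin. Its denervated pads read 9.48, 12.2 and 11.1 TPM at day 1 beside 9.63, 14.8 and 19.7 in the sham pads of the same mice. At day 3 they read 17.1, 26.5 and 21.6 TPM beside 19.8, 27.1 and 19.6, and at day 7 25.3, 21.8 and 16.9 beside 28.2, 22.8 and 19.4. The denervated pad was the lower one in 8 of 9 mice, where 5.33% of all genes were lower in at least 8, and the ranges of the groups overlapped at each day. The log2 difference over all days was -0.18 (SE 0.14, 95% interval -0.47 to 0.11, adjusted p = 0.625), and the exact sign-flip test gave p = 0.0352 (adjusted 0.252). In the limma fit with the mouse as a block the interval was -0.368 to 0.009 (adjusted p = 0.32). With libraries scaled to their muscle markers, which moved the median of all genes to 0.20, the difference of Bst2 was 0.02.

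Rsad2, viperin, differed most between mice. Its denervated and sham pads read 3.05 and 0.749 TPM in day 1 mouse 1 but 0.784 and 4.68 TPM in day 1 mouse 3. The third pair of that day, mouse 2, read 1.56 and 1.70 TPM. At day 3 the denervated pads held 10.4, 9.95 and 8.08 TPM and the sham pads 8.66, 7.97 and 3.11. At day 7 the denervated pads held 48.2, 5.63 and 8.82 TPM and the sham pads 11.7, 1.50 and 10.3. The direction was thus the same in all 3 mice at day 3 only, and the groups overlapped at each day. Over all days the log2 difference was 0.51 (SE 0.45, 95% interval -0.44 to 1.46, adjusted p = 0.693), so a change of either sign or none lies within the interval. With the mouse as a block that interval was -0.28 to 1.31 (adjusted p = 0.519). The block fit of day 7 alone gave 0.07 to 2.20 (adjusted p = 0.259).

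Of the Ifit genes, Ifit2 had the lowest adjusted p at day 7 in the fit without the mouse as a block. Its sham pads read 1.99, 2.34 and 3.13 TPM and its denervated pads 3.94, 3.22 and 3.75, so every denervated value was above every sham value. This was the only member whose groups did not overlap at a day, and 10.6% of all genes were higher in that way at day 7. The log2 difference was 0.48 (SE 0.20, adjusted p = 0.393). Ifit1 and Ifit3 were also higher on the denervated side in 3 of 3 mice at day 7, by 0.16 to 0.83 for Ifit1 and by 0.06 to 0.11 for Ifit3 on the log2 scale, with adjusted p of 0.723 and 0.879. For Ifit3 the 95% interval at day 7 ran from -0.27 to 0.42. In the limma fit with the mouse as a block, the day 7 interval was 0.02 to 0.88 for Ifit1 (adjusted p = 0.267). For Ifit2 it was 0.001 to 0.965 (adjusted p = 0.282).

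The regulators Irf7 and Usp18, and Oasl2, had small differences between the sides over all days and larger ones at day 1. Irf7 was at 9.36 ± 1.91, 12.7 ± 2.69 and 11.8 ± 3.66 TPM in sham pads at days 1, 3 and 7 (SD, n = 3) and at 6.93 ± 1.50, 12.5 ± 2.62 and 11.9 ± 5.66 in denervated pads. Over all days its log2 difference was -0.17 (95% interval -0.54 to 0.21). For Usp18 it was -0.18 (-0.50 to 0.14) and for Oasl2 -0.03 (-0.42 to 0.36), with adjusted p between 0.672 and 0.968 for the 3 genes. At day 1 the log2 differences were -0.41 for Irf7, -0.38 for Usp18 and -0.33 for Oasl2, and none passed (adjusted p = 0.999 for each). Usp18 was lower on the denervated side in 7 of 9 mice (exact sign-flip p = 0.168, adjusted 0.505). The direction of Irf7 rests on how its transcripts are taken. With its most abundant transcript in place of the sum, the difference was 0.26.

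**Figure D2:**
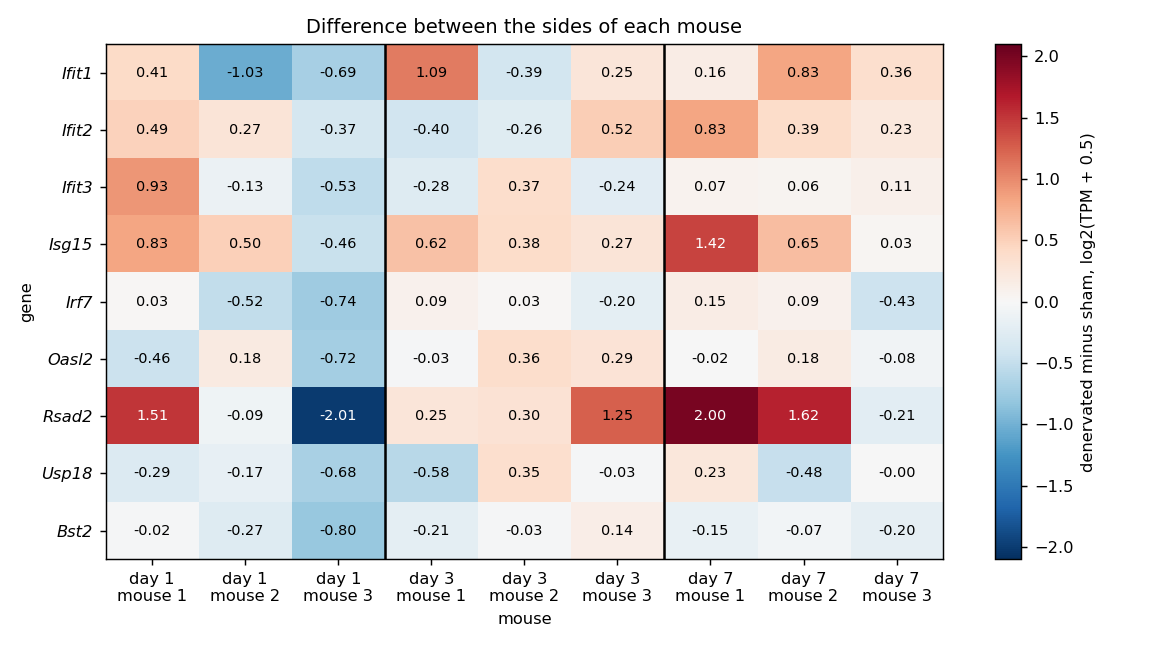
Denervated minus sham difference of log2(TPM + 0.5) within each of the 9 mice (columns, by day) for each gene (rows), with red for higher on the denervated side, blue for lower and the value in each cell. Isg15 is above 0 in 8 columns, Bst2 below 0 in 8, and day 1 mouse 3 is below 0 for all 9 genes.

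The sign of the difference varied between mice of the same day. In day 1 mouse 3 all 9 genes were lower on the denervated side, with a median log2 difference of -0.69 and a range from -2.01 for Rsad2 to -0.37 for Ifit2. In day 1 mouse 1, 6 of 9 were higher, with a median of 0.41. The days 3 and 7 gave 4 to 7 genes higher per mouse, with medians between -0.03 and 0.30. In the same mice 46.2% to 56.6% of all genes tested were higher on the denervated side. Whether the effect of denervation differs between days was tested by itself, as an interaction. No member passed for day 3 minus day 1 (18 of 14757 genes did, 0.122%, or 68 with the mouse as a block, 0.461%), for day 7 minus day 1 (24 genes, 0.163%, or 21 with the block, 0.142%) or for day 7 minus day 3 (0 genes, 0%, with 1013 at an unadjusted p under 0.05, and 1 gene with the block, 0.00678%). The intervals of Rsad2 were wide, for example from -1.07 to 3.73 at day 7 minus day 1, or from -0.61 to 3.28 with the block.

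For some members the difference between the sides varied alongside that of haemoglobin RNA, but no member passed after adjustment over all genes. Haemoglobin transcripts come from red blood cells, and are read here as a measure of blood in a biopsy. The summed level of 5 red blood cell genes (Hbb-bs, Hbb-bt, Hba-a1, Hba-a2 and Alas2, a list chosen after the data were seen) ran from 2628 to 191365 TPM, and the highest was the denervated pad of day 7 mouse 1. The within-mouse difference of Hbb-bs was 2.62, 0.36 and -2.40 for mice 1 to 3 of day 1, 0.06, 0.23 and 1.50 for day 3, and 1.81, 3.10 and -0.19 for day 7. That of Rsad2 in the same order was 1.51, -0.09 and -2.01, then 0.25, 0.30 and 1.25, then 2.00, 1.62 and -0.21. The mouse with the lowest difference was the same for both genes, and so were the 4 mice with differences above 1.

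Across the 9 mice, Pearson's r between the differences of Rsad2 and Hbb-bs was 0.947 (exact permutation p = 0.00065) and Spearman's rho was 0.900 (exact permutation p = 0.00203). Adjusted over all 14756 genes set against Hbb-bs, these p-values became 0.48 and 0.89, and 4 genes had an adjusted p for r under 0.05. Rsad2 ranked 11 by r among the 14756 genes, for which the median r was 0.0651. Without day 1 mouse 3 and day 7 mouse 2, which lay farthest out for Hbb-bs, r was 0.903 over 7 mice. With 3 mice a day, r could not be taken within days, and the permutations pooled the mice of all days.

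Isg15 had r = 0.745 and rho = 0.783 (exact permutation p = 0.0249 and 0.0172, adjusted 0.542 and 0.893), and r = 0.609 over 7 mice. Bst2 had r = 0.789, which became 0.525 over 7 mice. The other members ranged from 0.218 for Usp18 to 0.740 for Irf7, and Oasl2 changed sign, from 0.393 to -0.49, when the pair of mice was left out. With the haemoglobin genes removed and the libraries scaled to equal sums, the log2 difference over all days was 0.53 for Rsad2 and 0.48 for Isg15, close to the values above. That removal changes the scaling of the libraries and not the blood in a biopsy. The part of blood content in the differences between the sides was not tested.

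**Figure D3:**
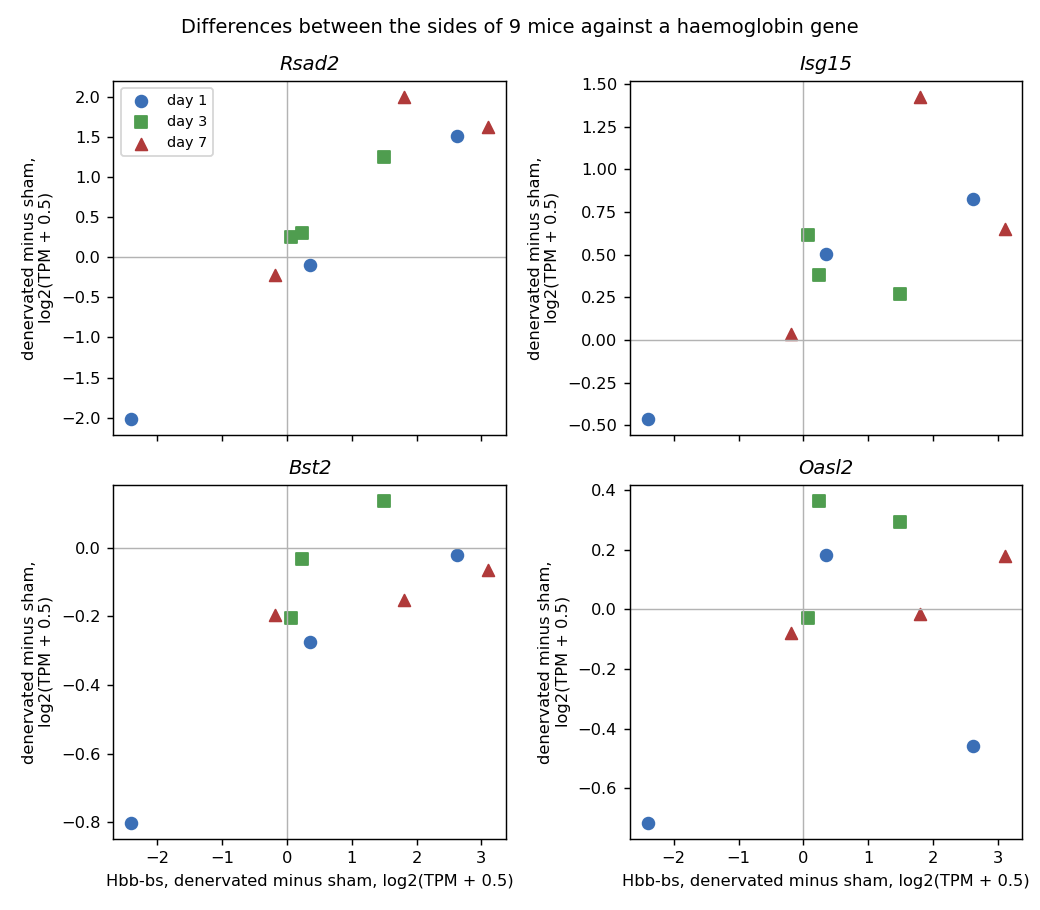
Denervated minus sham difference of log2(TPM + 0.5) for Rsad2, Isg15, Bst2 and Oasl2 (vertical axes) against that of the haemoglobin gene Hbb-bs (horizontal axis), with 1 point per mouse, marked by day. Rsad2 lies close to a line (r = 0.947), whereas Oasl2 does not (r = 0.393).

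Time after surgery was compared within each side, with different mice at each day. A difference between days therefore cannot be told apart from a difference between those mice, whose ages the study does not give by day. On the denervated side all 9 genes had higher means at day 3 than at day 1, and 2 passed the test. Bst2 was at 10.9 ± 1.35 TPM at day 1 and 21.7 ± 4.67 at day 3 (SD, n = 3), a log2 difference of 0.95 (SE 0.24, adjusted p = 0.0244). Oasl2 was at 3.69 ± 1.57 and 8.83 ± 2.61 TPM, a log2 difference of 1.19 (SE 0.33, adjusted p = 0.0334). In this comparison 1522 of 14757 genes passed (10.3%), of which 1079 were higher (7.31%). The 9 genes, chosen with earlier results of these data known, had a median log2 difference of 0.95 beside 0.03 over all genes.

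The other 7 genes did not pass. Isg15 went from 8.80 ± 2.21 to 22.1 ± 5.49 TPM (log2 difference 1.28, adjusted p = 0.0505) and Ifit3 from 3.27 ± 0.328 to 7.98 ± 4.30 (1.06, adjusted p = 0.0583). Rsad2 had the widest gap, from 1.80 ± 1.15 to 9.48 ± 1.23 TPM (log2 difference 2.23, SE 0.79, adjusted p = 0.0854). Usp18 (0.74), Irf7 (0.81), Ifit2 (0.54) and Ifit1 (0.62) had adjusted p between 0.0937 and 0.438. In 8 of the 9, all but Ifit1, every denervated value at day 3 was above every denervated value at day 1. The share of all genes with that pattern was 20.8%.

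The sham side had values in the same direction for 8 of 9 genes, with no call. Ifit3 read 1.55, 3.22 and 5.31 TPM at day 1 and 6.85, 9.93 and 6.51 at day 3 (log2 difference 1.20, SE 0.34, adjusted p = 0.147). Isg15 read 5.58, 6.81 and 8.82 TPM and then 13.6, 21.4 and 14.1 (1.15, SE 0.39, adjusted p = 0.213). Both, and Oasl2, did not overlap between the days, as was true of 10.9% of all genes in this direction. The limma test called 0 of 14757 genes here (0%), although 1984 had an unadjusted p under 0.05, among them 4 members. The median log2 difference of the 9 genes was 0.65 beside 0.04 over all genes, and only Ifit1 was below 0, at -0.13. Since the interaction passed for no member, the time course is not shown to differ between the sides.

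From day 3 to day 7 no member passed on either side. On the denervated side 44 genes passed (0.298%) and the 9 genes had log2 differences from -0.17 to 0.50. On the sham side 0 genes passed (0%, with 1938 at an unadjusted p under 0.05) and the 9 genes ranged from -0.36 to 0.28. Ifit2 on the denervated side was the one gene without overlap, from 2.24, 2.81 and 2.61 TPM at day 3 to 3.94, 3.22 and 3.75 at day 7, a pattern that 10.8% of all genes shared (log2 difference 0.44, adjusted p = 0.469). With muscle-marker scaling the medians of all genes were -0.76 on the denervated and -0.66 on the sham side, and all 9 genes were at or below 0 on both.

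**Figure D4:**
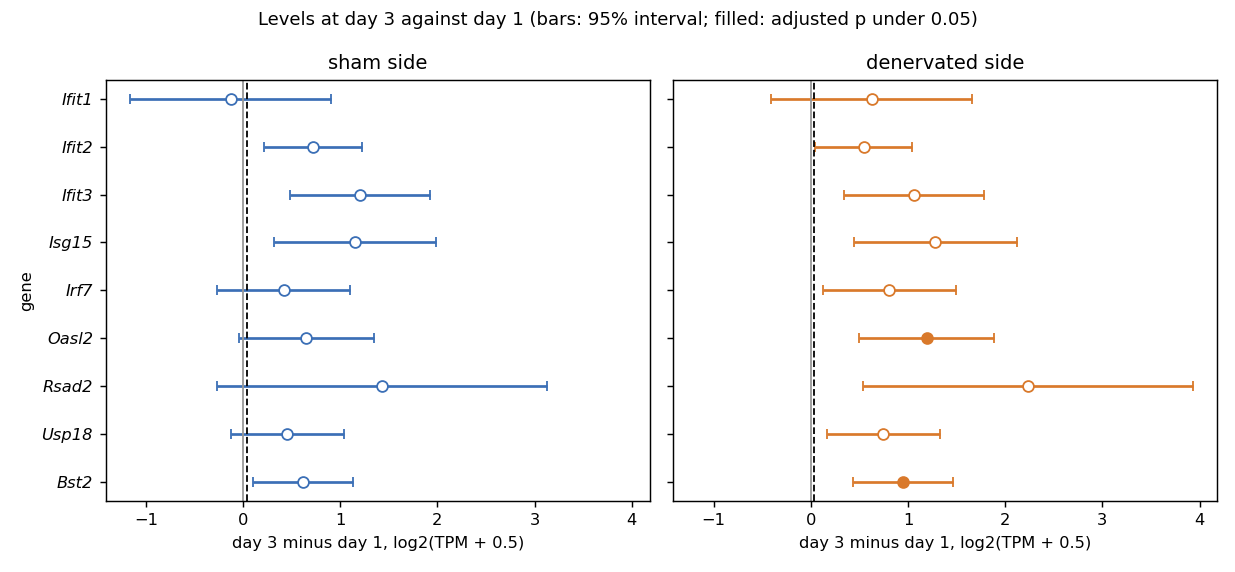
Log2 difference of day 3 minus day 1 with its 95% interval for each gene on the sham side (left) and the denervated side (right), where filled points passed the test and the dashed line is the median of all genes. All 9 points lie above 0 on the denervated side and 8 of 9 on the sham side, with Oasl2 and Bst2 filled on the denervated side.

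Both calls depended on single mice and were lost with muscle-marker scaling, but not with every scaling. With the haemoglobin genes removed and sums made equal, Bst2 (adjusted p = 0.0462) and Oasl2 (0.0499) passed. Without mouse 2 or without mouse 3 of day 3, no member passed. Oasl2 was the less stable call. It was also lost without mouse 1 of day 1 (adjusted p = 0.0879), mouse 3 of day 1 (0.0863) or mouse 1 of day 3 (0.0541), and with its most abundant transcript in place of the sum (0.0634). Bst2 passed in these fits, and was lost without mouse 2 of day 1 (0.0589), where Oasl2 passed. Without mouse 1 of day 1, Ifit3 passed beside Bst2 (0.0475). Leaving out a mouse of day 7 kept both calls and added Isg15 and Rsad2 (without mouse 1 or mouse 2) or Irf7 (without mouse 3). With libraries scaled to their muscle markers, which moved the median of all genes to -0.47 in this comparison, Bst2 was at 0.44 and Oasl2 at 0.73, and neither passed. All 9 genes stayed above 0 on the denervated side under that scaling, and 5 of 9 did on the sham side, where the median of all genes was -0.60.

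Other cell type markers moved between the same groups, where 10.3% of all genes passed. The 5 endothelial markers summed to 60.4 to 67.3 TPM in denervated pads at day 1 and 93.3 to 111 TPM at day 3. All 5 were higher at day 3, and Kdr (log2 difference 1.17, adjusted p = 0.0031) and Tie1 (0.98, adjusted p = 0.00732) passed. The 8 macrophage markers summed to 97.9 to 117 TPM at day 1 and 223 to 320 TPM at day 3, with all 8 higher and 1 called, Cd68 (1.62, adjusted p = 0.0231). The 10 muscle markers were also all higher with none called, from 7500 to 15529 TPM and then from 15542 to 19720 TPM. The red blood cell genes had a median log2 difference of 1.84, with 0 of 5 called. From other marker lists, Tcf4, on the plasmacytoid dendritic cell list, was higher (0.45, adjusted p = 0.0144) and the basal keratin Krt14 was lower (-0.79, adjusted p = 0.0324). The sum of the list with Tcf4 went the other way in denervated pads, at 649 to 843 TPM at day 1 and 442 to 591 TPM at day 3. The highest gene of that list was Ly6d, at a mean of 586 TPM over all libraries, beside a median sum of 596 TPM for the list. The sum therefore mostly follows Ly6d, and is not a measure of plasmacytoid dendritic cells. In the other fits tried, the log2 difference of Tcf4 ran from -0.07 to 0.54, with an adjusted p of up to 0.943. With muscle-marker scaling neither Kdr, Tie1 nor Cd68 passed (adjusted p of 0.642 or more). On the sham side the medians were 0.80 for endothelial, 0.46 for macrophage, 0.48 for muscle and 1.29 for red blood cell genes, all above 0 as on the denervated side. The epidermal list was above 0 in 6 of 7 genes on the sham side (median 0.19) and in 1 of 7 on the denervated side (median -0.23). No gene of these lists was at 0 in every library. In bulk tissue, more cells of a type and more RNA per cell cannot be told apart, and the part of these cell types in the day 3 levels was not tested.

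The rest of the pathway was read in the same way, from lists of ligands, receptors, signal carriers, sensors and further target genes. Of the 11 interferon ligand genes none reached the filter. Ifna1, Ifna4, Ifna5, Ifnb1 and Ifnl2 were listed at 0 in all 18 libraries, and Ifng, the highest by mean, averaged 0.304 TPM. The summed level of all 11 stayed at or below 2.01 TPM, while the 9 genes themselves summed to between 35.8 and 170 TPM.

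All 6 receptor genes were measured, led by Ifngr1, a chain of the interferon-gamma receptor, at a mean of 64.6 TPM. Ifnar1 averaged 11.1 TPM (range 9.39 to 13.8) and Ifnar2 17.4 TPM (11.8 to 23.9). No receptor gene passed between the sides. On the denervated side 1 of 6 passed from day 1 to day 3, Ifnlr1, the receptor chain for lambda interferons, which fell by 0.50 in log2 units (adjusted p = 0.0297). Over all genes 10.3% passed in that comparison, 7.31% higher and 3.00% lower. Of 13 signal transduction genes, 0 passed between the sides and 1 passed with time. Jak1 read 26.0, 26.2 and 20.7 TPM in denervated pads at day 1 and 34.2, 37.5 and 32.5 at day 3 (log2 difference 0.51, adjusted p = 0.0233). Irf3, the highest of that list, averaged 112 TPM. Of the 11 nucleic acid sensors, 8 were tested over all days, 9 at day 7 alone, and none passed in any of these comparisons. Mavs, the mitochondrial adaptor of the RNA sensors, was the highest at a mean of 16.7 TPM. Mb21d1 was not matched by that symbol, so its level was not examined.

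Further interferon-stimulated genes gave a larger set of the same kind. Of 33 listed, 28 were tested over all days and 0 passed between the sides. At day 7, 1 of 29 tested passed, Cxcl10, a chemokine that draws T cells. Its sham pads read 0.542, 0.874 and 0.388 TPM and its denervated pads 3.31, 2.38 and 2.31, without overlap (log2 difference 1.53, SE 0.27, adjusted p = 0.049). All sham values were under 1 TPM, so Cxcl10 passed the filter of this comparison only through the denervated pads, and its call is given as a description. The call held in 4 of 11 other settings, and did not hold with the mouse as a block (adjusted p = 0.0565) or without any 1 of the 3 mice of that day (0.152 to 0.535). From day 1 to day 3 on the denervated side, 4 of 28 were called higher and none lower, beside 7.31% and 3.00% of all genes. They were Ifi27l2a (1.30), Rtp4 (1.24), Cmpk2 (0.89) and Dtx3l (0.50), with adjusted p between 0.0244 and 0.0306. Cmpk2 encodes a mitochondrial nucleotide kinase and Dtx3l a ubiquitin ligase. Their median log2 difference over the 28 was 0.43, and 24 were above 0. On the sham side 25 of 28 were above 0, with 0 called and a median of 0.32. The highest of the list, Ifitm3, a membrane protein that blocks viral entry, averaged 351 TPM.

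Genes typical of interferon-gamma, 19 of 20 tested over all days, gave 0 calls between the sides. From day 1 to day 3 on the denervated side 1 of 19 passed, beside 10.3% of all genes. It was Nlrc5, an activator of class I antigen presentation genes, which fell by 0.52 (adjusted p = 0.0281). B2m, the light chain of class I molecules and the highest of that list, averaged 753 TPM. The calls with time for Jak1, Ifnlr1, Nlrc5 and the 4 target genes each held in 3 to 6 of the 9 fits that left out 1 mouse. With muscle-marker scaling none of them held (adjusted p of 0.649 or more), and the log2 difference of Jak1 was -0.01.

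**Figure D5:**
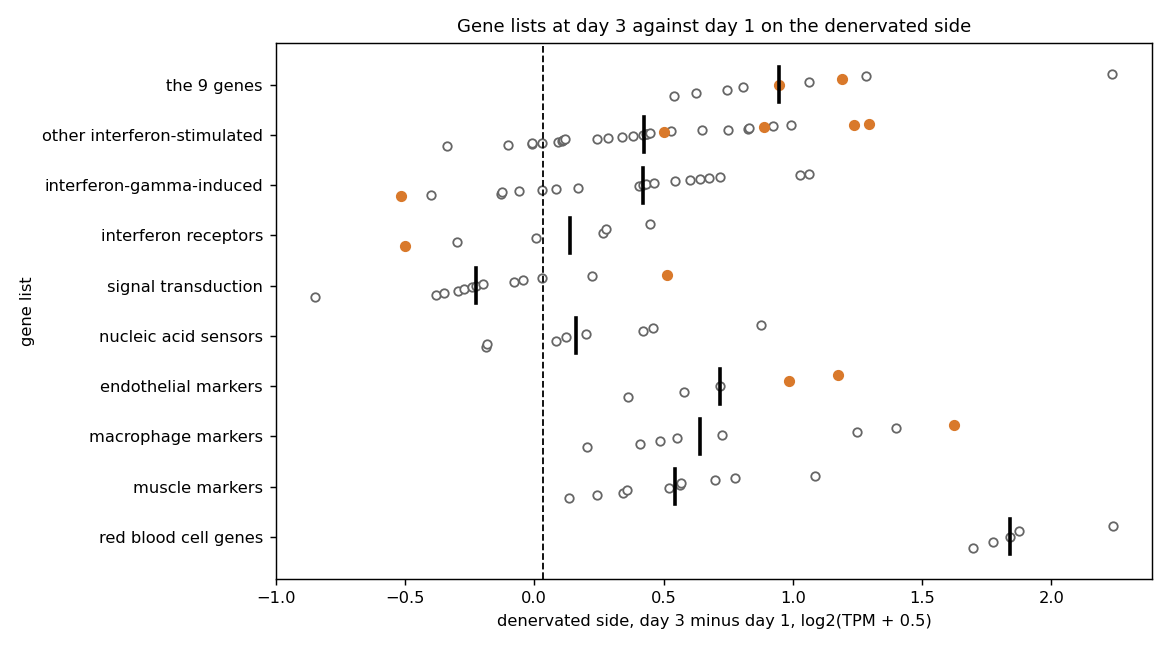
Log2 difference of day 3 minus day 1 on the denervated side for every tested gene of 10 lists (rows), with filled points for genes that passed, a black bar at the median of each list and a dashed line at the median of all genes. The 9 genes have a median of 0.95, the other interferon-stimulated genes 0.43 and the red blood cell genes 1.84.

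Among immune cell markers, 1 neutrophil gene passed between the sides. S100a8, an alarmin subunit abundant in neutrophils and in injured skin, was higher on the denervated side over all days (log2 difference 3.62, adjusted p = 0.00582) and at day 7 (4.33, adjusted p = 0.0115), the 1 call among 5 neutrophil markers tested. Without any 1 mouse of day 7, the day 7 value had an adjusted p of 0.0708 to 0.133. None of the 8 macrophage, 4 T and NK cell and 4 plasmacytoid dendritic cell markers tested over all days passed. Siglech, a defining marker of plasmacytoid dendritic cells, the main producers of type I interferon in blood, averaged 1.22 TPM. The biopsies held the labelled tissues, with all 10 muscle markers and all 7 epidermal markers above 0 in every library and sums of at least 4789 and 4462 TPM. The muscle creatine kinase gene Ckm was lower in denervated pads at day 7 (-1.12, adjusted p = 0.010, but 0.215 and 0.281 without mouse 1 or mouse 2 of that day), and muscle markers gave no other call between the sides.

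The 9 genes moved together across libraries to different degrees. Over the 18 libraries, which share mice and days, Pearson's r of log2(TPM + 0.5) between pairs of the 9 genes ranged from 0.0777 to 0.929, with a median of 0.697 over 36 pairs. The closest pair was Oasl2 and Bst2 (0.929), while Rsad2 and Isg15 reached 0.919. Ifit1 stood apart, with r between 0.0777 and 0.489 to the other 8. Against the mean z-score of all 9, which includes the gene itself and so raises its r, Oasl2 was at 0.932 and Ifit1 at 0.47. The 10 other genes most like that mean, among the 14757 tested, were Rtp4, Ets1, Dennd5a, Ptprb, Podxl, Tspan2, Col6a1, Tnfsf10, Dag1 and Asb1, with r from 0.934 to 0.913. Rtp4 and Tnfsf10 are themselves known interferon-stimulated genes, while none of the others is on the interferon or cell type lists used here. Those lists are short, with 5 endothelial markers for example, so this does not tell which cells express these genes.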

How the data were processed

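Total RNA from whisker pad punches was prepared with the Illumina TruSeq v2 kit, and the submitters' processing notes name bcl2fastq 2.17.1.14, kallisto 0.43.1, sleuth and the GRCm38 build. The deposited values are a signal: transcript TPM normalized between samples by the authors, with sums per library from 833186 to 1143839. The table holds no read counts. The lowest values were near whole multiples of 1 read in only 60.0% to 73.0% of cases, so counts were not recovered and depth is unknown, as is the floor of each value.

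Of 113194 transcripts, 98.5% were matched to GENCODE M21 genes and summed to 35150 genes. Tests used limma 3.58.1 with a mean-variance trend in R 4.3.3 on log2(TPM + 0.5), a scale that understates changes of low genes. The model over all days had day and side as terms, each day was fitted by its own 6 samples, and time and interaction contrasts came from 1 fit of 6 group means. The filter was TPM of at least 1 in 47% of the samples, and a call was an adjusted p under 0.05. The exact sign-flip test used all 512 sign patterns, and correlations used all pairings of 9 mice. Means are given with SD over 3 mice. On simulated data, the single-day tests between the sides recovered 43.0% to 45.9% of 2-fold changes and 81.6% to 88.7% of 4-fold changes. The test over all days recovered 90.8% of 2-fold changes, and the sign-flip test recovered 0% of 2-fold and of 4-fold changes.

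Day 7 columns carry other mouse numbers than the sample titles and were matched by side letter and sequencing index. The left and right pads of a mouse share that mouse by label, and their deviations from the group means correlated at 0.163 to 0.568 in each of the 9 mice. Members and lists were chosen with earlier results of these data known. The text names the 9 genes throughout, list genes past the threshold or else the highest of a list, and the 10 genes most correlated with the members; red blood cell genes and any others were named after their values were seen. Alternatives changed the pseudocount, filter, scaling, trend, transcript choice, block and mice used. Promoters were RefSeq windows. One result from the marker lists is not reported here.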

Additional observations from a re-analysis of the deposited data

How the results depend on the processing

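Between the sides, in the interactions, on the sham side and from day 3 to day 7, no member passed under any alternative tried. The limits are 3 mice a group, values without counts and mixed tissue. On the denervated side from day 1 to day 3, 2 members passed, against 1 with the most abundant transcript of each gene, 0 with muscle-marker scaling and 0 to 4 with 1 mouse left out. The causes were not tested.

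The counts over all genes moved more. Muscle-marker scaling gave 49 in place of 1522 genes on the denervated side from day 1 to day 3, 1 in place of 44 from day 3 to day 7, 2 and 4 in place of 0 on the sham side from day 1 to day 3 and from day 3 to day 7, 136 in place of 457 between the sides over all days, 17 in place of 0 at day 1, and 0 in place of 18 and 1 in place of 24 for the interactions of days 3 and 7 with day 1. At day 1 the count of 0 became 29 with all 18 samples in one fit, 2 with equal sums, with or without haemoglobin genes removed (added after seeing the data), 6 without the trend and 1 with TPM above 0. From day 3 to day 7 on the denervated side, 44 became 26 with haemoglobin genes removed and sums made equal (33 with equal sums alone), 18 with the most abundant transcript and 29 both with median-of-ratios scaling and without the trend. For day 7 minus day 1, 24 became 15 with equal sums and 14 with the most abundant transcript, and for day 7 minus day 3, 0 became 1 with a pseudocount of 1. On the sham side, 0 became 8 from day 1 to day 3 with the most abundant transcript and 1 from day 3 to day 7 with TPM above 0.

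Leaving out each mouse in turn gave 227 to 692 genes between the sides over all days, and at single days 0 to 4 (day 1), 0 to 217 (day 3) and 1 to 230 (day 7). It gave 419 to 1538 genes from day 1 to day 3 and 5 to 220 from day 3 to day 7 on the denervated side, and 0 to 40 and 0 to 66 on the sham side. The interactions gave 6 to 148 for day 3 minus day 1, 0 to 82 for day 7 minus day 1 and 0 to 1 for day 7 minus day 3.

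With the mouse as a replicate block, 0 members passed in each comparison. The block gave 517 genes over all days. It gave 0, 217 and 328 genes at days 1, 3 and 7. The interactions gave 68, 21 and 1 genes for day 3 minus day 1, day 7 minus day 1 and day 7 minus day 3. For levels across days within a side no paired analysis was possible because different mice were sampled at each day.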
